A study of Mus musculus with 6 samples.

Results

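The genes described here are 45 lysosomal genes, taken by symbol from the 55356 genes of the deposited table. They comprise 13 cathepsins and other proteases, 10 other hydrolases and their cofactors, 7 membrane proteins and 15 subunits and accessory proteins of the vacuolar ATPase (V-ATPase). All 45 symbols had a row. The RNA came from C2C12 myotubes, the multinucleate cells that this single mouse myoblast line forms in culture. The 3 sorafenib libraries came from cultures given 20 µM of the drug, an inhibitor of several protein kinases, for 24 h. The 3 DMSO libraries came from cultures given its solvent alone at 0.1% for 24 h. The series describes the replicates as separate experiments, and asks how the drug alters gene expression in muscle cells.

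Lysosomes are acidic compartments in which enzymes break down proteins, lipids, glycans and glycogen delivered by endocytosis and autophagy. The V-ATPase acidifies them: its V1 sector hydrolyses ATP in the cytosol and turns a rotor that drives protons through the membrane-embedded V0 sector. Membrane glycoproteins line the limiting membrane, and transporters and channels return products and ions to the cytosol. In muscle, loss of single members causes storage disease, such as Pompe disease with loss of acid alpha-glucosidase (GAA) and Danon disease with loss of LAMP2.

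Values are normalized counts, that is gene counts scaled by the authors to make libraries comparable. The value of a single read differed slightly between genes of a library, so the scaling was not simply 1 factor per library. Normalized totals were 70211431 to 70598400 per sorafenib library and 77972419 to 78898086 per DMSO library. Depth, estimated from the value of a single read, was 76.3 to 77.3 M reads in sorafenib libraries and 65.6 to 80.2 M reads in DMSO libraries. All 12 markers of myotubes were detected in every library and all 12 fell in sorafenib, the most abundant, embryonic myosin heavy chain (Myh3), by a log2 change of −2.01. Their summed level was 579544 to 699146 in sorafenib libraries and 2173541 to 2352946 in DMSO libraries. Fewer cells of a kind and less RNA per cell cannot be told apart in these bulk samples.

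Lysosomal genes moved in both directions in sorafenib, mostly by small amounts. Of the 44 members that reached the minimum for testing, 24 were higher, 11 were lower and 9 did not pass (limma, adjusted p under 0.05). Over all genes tested, 76.6% were called, 38.8% higher and 37.8% lower. The members' 79.5% called is therefore close to that of all genes, and their split was 54.5% higher and 25% lower. The 3 sorafenib libraries lay wholly apart from the 3 DMSO libraries for 37 of the 44 members, or 84.1%, against 79.5% of all genes. They lay above for 25 members and below for 12, against 40.1% and 39.4% of all genes. The median log2 change of the members was 0.19, and that of all genes tested 0.02 (0.015 before rounding). It was 0.33 for the members and 0.06 (0.056 before rounding) for all genes with quantile normalization, and 0.35 and 0.17 with equal totals.

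Sizes were modest. The change was below 1.5-fold for 31 of the 44 members, or 70.5%, against 50.2% of all genes tested. At 2-fold or more, 3 members rose and 2 fell, against 12.5% and 17.3% of all genes, 29.8% in both directions together. Replicates were close: the coefficient of variation of a member over the 3 libraries of a group had a median of 3.73% in sorafenib and 4.01% in DMSO. Because most changes are small, the scaling of libraries matters here. Giving every library the same total shifted the all-gene median by 0.156 on the log2 scale. With it 31 members were higher and 8 lower, while 46.6% and 31.7% of all genes were. With quantile normalization 29 members were higher and 10 lower, against 40.5% and 36.3% of all genes. By the authors' deposited table, 24 members were higher and 11 lower at an adjusted p under 0.05, with the same call as limma for all 44.

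**Figure D1:**
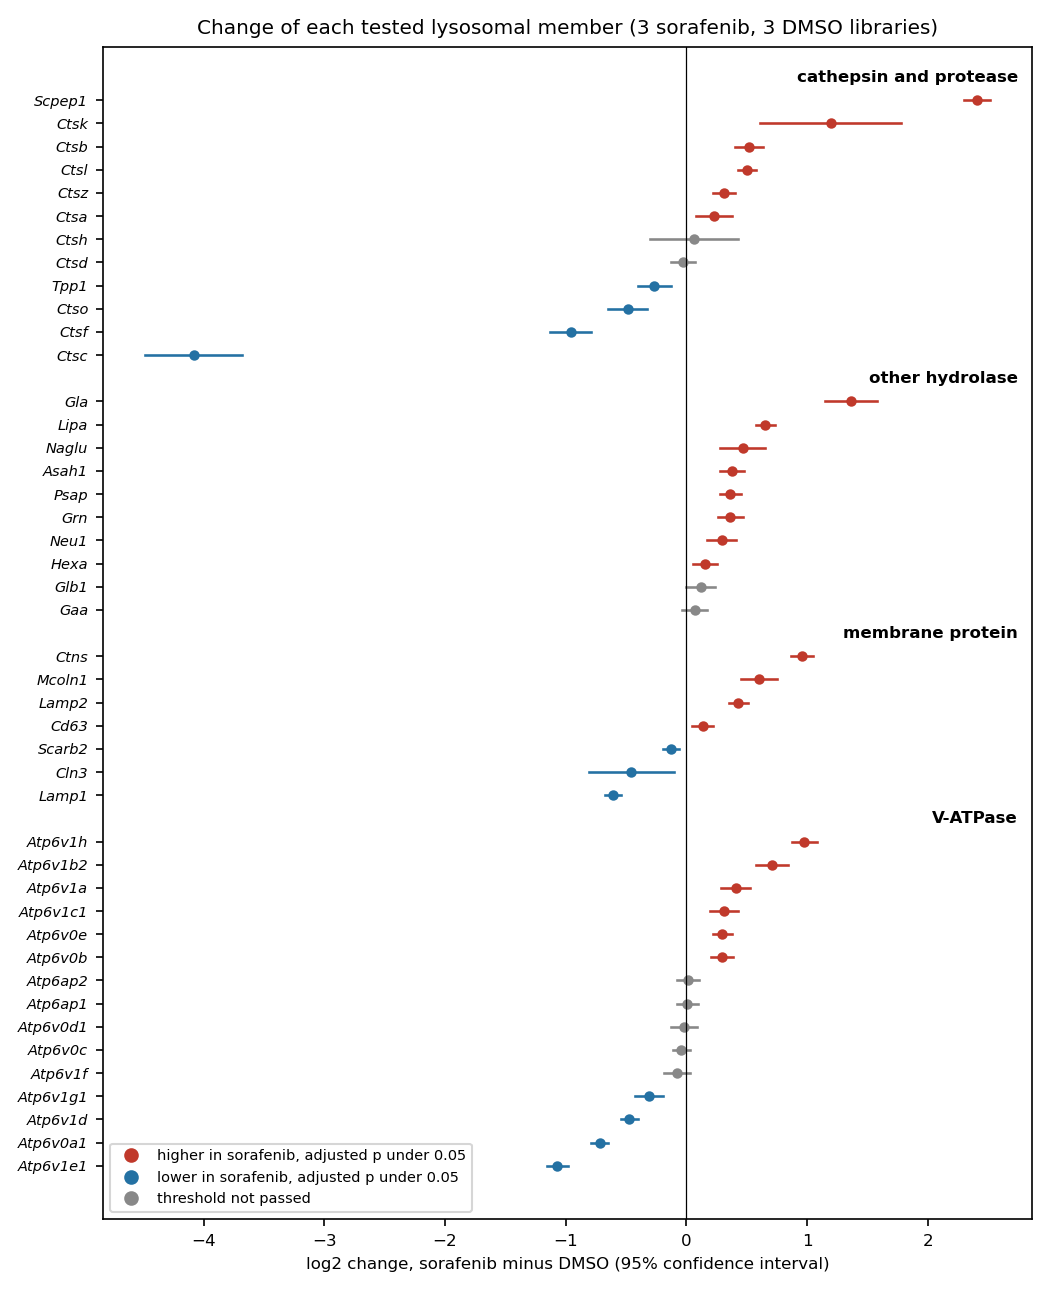
Log2 change of the 44 tested members, sorafenib minus DMSO, with the 95% confidence interval from limma, grouped by role and sorted by change. Red points passed the threshold upward (24), blue points downward (11) and grey points did not pass (9); Scpep1 at 2.41 and Ctsc at −4.08 lie farthest out.

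Many lysosomal promoters carry a palindromic E-box to which the transcription factors TFEB, TFE3 and MITF can bind. The element was defined on lysosomal genes, so its presence among them is no result of these data. In RefSeq promoters on GRCm38.p6, from 250 bases before to 50 after each start, 38 of the 45 members had an entry. Each motif was searched on both strands, and the longer ones contain the shorter. Shares are of genes with an entry, counting a gene if any of its promoters held the motif. The 10-base form, the core TCACGTGA with G before it and C after it, was in 1 member (2.63%), Cln3, and in 0.37% of all genes. The core was in 8 members (21.1%) and in 1.12% of all genes. The E-box CACGTG was in 15 members (39.5%) and in 8.09% of all genes. The C/EBP-ATF element TGATGCAA was in 0 members and in 1.03% of all genes. The stretches below show the 8 members with the core and the 4 E-boxes of Lamp1, with 25 flanking bases where the window allows. Capitals mark the core, in Cln3 the 10-base form and in Lamp1 the E-box.
Gla (chrX:134601168-134601255, minus strand): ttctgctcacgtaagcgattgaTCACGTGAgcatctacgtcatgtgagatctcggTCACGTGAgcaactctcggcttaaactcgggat
Mcoln1 (chr8:3500448-3500505, plus strand): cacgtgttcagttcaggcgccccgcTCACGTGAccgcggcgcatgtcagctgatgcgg
Atp6v1a (chr16:44139359-44139416, minus strand): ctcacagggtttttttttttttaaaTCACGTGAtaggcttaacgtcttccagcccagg
Atp6v0e (chr17:26676373-26676430, plus strand): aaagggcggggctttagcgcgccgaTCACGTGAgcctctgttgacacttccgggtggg
Ctsa (chr2:164833735-164833809, plus strand): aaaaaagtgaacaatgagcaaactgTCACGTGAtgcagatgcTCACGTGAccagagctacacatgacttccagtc
Atp6v0d1 (chr8:105566036-105566093, minus strand): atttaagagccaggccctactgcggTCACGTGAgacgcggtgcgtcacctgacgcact
Ctsd (chr7:142387894-142387951, minus strand): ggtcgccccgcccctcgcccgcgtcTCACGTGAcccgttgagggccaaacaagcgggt
Cln3 (chr7:126583325-126583384, minus strand): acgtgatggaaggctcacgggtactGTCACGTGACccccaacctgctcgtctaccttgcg
Lamp1 (chr8:13159075-13159176, plus strand): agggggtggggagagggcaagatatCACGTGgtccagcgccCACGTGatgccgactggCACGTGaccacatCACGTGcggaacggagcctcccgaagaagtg
Of these 8 core-bearing members, 5 rose in sorafenib (Gla, Mcoln1, Atp6v1a, Atp6v0e and Ctsa). Cln3 fell, but not past the threshold with quantile normalization or equal totals. Ctsd and Atp6v0d1 did not pass, though both passed upward with equal totals. Of the 15 members with the E-box, 8 rose, 3 fell and 4 did not pass. Of the 38 members with an entry, with or without a motif, 19 rose, 10 fell and 8 did not pass, and Ctss was not tested. Over all genes tested, 38.8% were higher and 37.8% lower. Lamp1, with 4 E-boxes within the stretch shown, fell. Whether these motifs have a part in the changes was not tested.

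Proteases held the widest range of changes. Of 12 tested, 6 rose (50%), 4 fell (33.3%) and 2 did not pass, against 38.8% higher and 37.8% lower over all genes tested. The median log2 change of the 12 was 0.15. Serine carboxypeptidase 1 (Scpep1, ENSMUSG00000000278.11, chromosome 11, 88924020 to 88955465 on GRCm38 in GENCODE M21), which trims residues from the carboxyl end of proteins, had 45785, 43124 and 43722 normalized counts in the sorafenib libraries, against 7812, 8446 and 8722 in the DMSO libraries. Every sorafenib library was thus far above every DMSO library. The rise was 5.31-fold, a log2 change of 2.41 ± 0.05 (SE, limma adjusted p = 9.37e-10).

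Cathepsin C (Ctsc, ENSMUSG00000030560.18, chromosome 7, 88278085 to 88310888), a dipeptidyl peptidase that activates granule proteases in leukocytes, stood at the other extreme. It had 19, 22.5 and 15 normalized counts in sorafenib libraries, against 350.8, 312.2 and 333.5 in DMSO libraries. The groups were far apart, 17.6-fold lower in sorafenib, with a log2 change of −4.08 ± 0.18 (limma adjusted p = 6.12e-08). At these low counts the pseudocount of 1 makes the log2 change slightly smaller than the ratio of means.

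The papain family of cysteine cathepsins was divided: of 8 tested, 4 rose (50%), 3 fell (37.5%) and 1 did not pass. All genes tested were divided too, with 38.8% higher and 37.8% lower. The abundant endopeptidase cathepsin B (Ctsb) had 57454, 53971 and 53928 in sorafenib libraries, against 35590.2, 40300.5 and 39602 in DMSO libraries, a change of 0.52 ± 0.05. Ctsl, the other abundant endopeptidase of the family, changed by 0.50 ± 0.03 and the carboxypeptidase Ctsz by 0.31 ± 0.04. All 3 rose, and in each the groups did not overlap. Ctsf and Ctso, which are rarer here, fell. Ctsf had 441.7, 424.3 and 478.4 in sorafenib libraries, against 875.3, 844.0 and 895.1 in DMSO libraries, and Ctso had 570.2, 653.0 and 638.2, against 854.5, 873.5 and 876.3. Their log2 changes were −0.96 ± 0.07 and −0.49 ± 0.07 (limma adjusted p = 2.32e-06 and 0.000209).

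Cathepsin K (Ctsk), the collagen-degrading protease of osteoclasts, was near the minimum in these cells. Its values were 46.6, 52.5 and 41.3 in sorafenib libraries, against 25.4, 14.2 and 21.2 in DMSO libraries. The groups were apart and the change was 1.20 ± 0.26 (limma adjusted p = 0.00222), with a wide 95% interval of 0.61 to 1.78. With a minimum of 50 normalized counts it was not tested. Cathepsin S (Ctss), a protease of antigen-presenting cells, was not tested. Its normalized counts were 0.912, 0 and 0.916 in sorafenib libraries, and it was listed at 0 in all 3 DMSO libraries.

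Cathepsin D (Ctsd), the main lysosomal aspartic protease and the member with the highest level per length among the proteases, did not pass. It had 70391, 67255 and 67219.5 in sorafenib libraries, against 65404, 70960.4 and 72194 in DMSO libraries, and the ranges overlapped. The 95% interval of its log2 change was −0.12 to 0.07. With quantile normalization it was higher by 0.33 and with equal totals by 0.13, both past the threshold, so its direction rests on the scaling. An annotated gene that shares sequence with it, Gm49369, matches 671 bases of Ctsd exactly and held 406.0 normalized counts in sorafenib and 786.9 in DMSO. The aminopeptidase Ctsh overlapped too, at 371.1, 277.5 and 237.6 in sorafenib libraries and 301.4, 257.0 and 274.9 in DMSO libraries, with an interval of −0.30 to 0.43. Ctsa, a carboxypeptidase that also protects neuraminidase and beta-galactosidase, changed by 0.23. Tpp1, the tripeptidyl peptidase lost in a form of Batten disease, changed by −0.26, and this fall no longer passed with equal totals (−0.11).

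The balance among proteases shifted through Scpep1. Per kb of exon, Scpep1 made up 23.5% of the summed protease level in sorafenib libraries and 6.08% in DMSO libraries. The share of Ctsd was 35.8% in sorafenib libraries and 50.1% in DMSO libraries, while that of Ctsb was 13.0% (12.95 before rounding) and 12.4%. In normalized counts the 13 proteases summed to 264443 ± 5764 in sorafenib libraries and 193017 ± 9192 in DMSO libraries (SD, n = 3 each), 1.37-fold higher. Without Scpep1 the sums were 220233 ± 4371 in sorafenib libraries and 184690 ± 8759 in DMSO libraries, 1.19-fold higher.

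**Figure D2:**
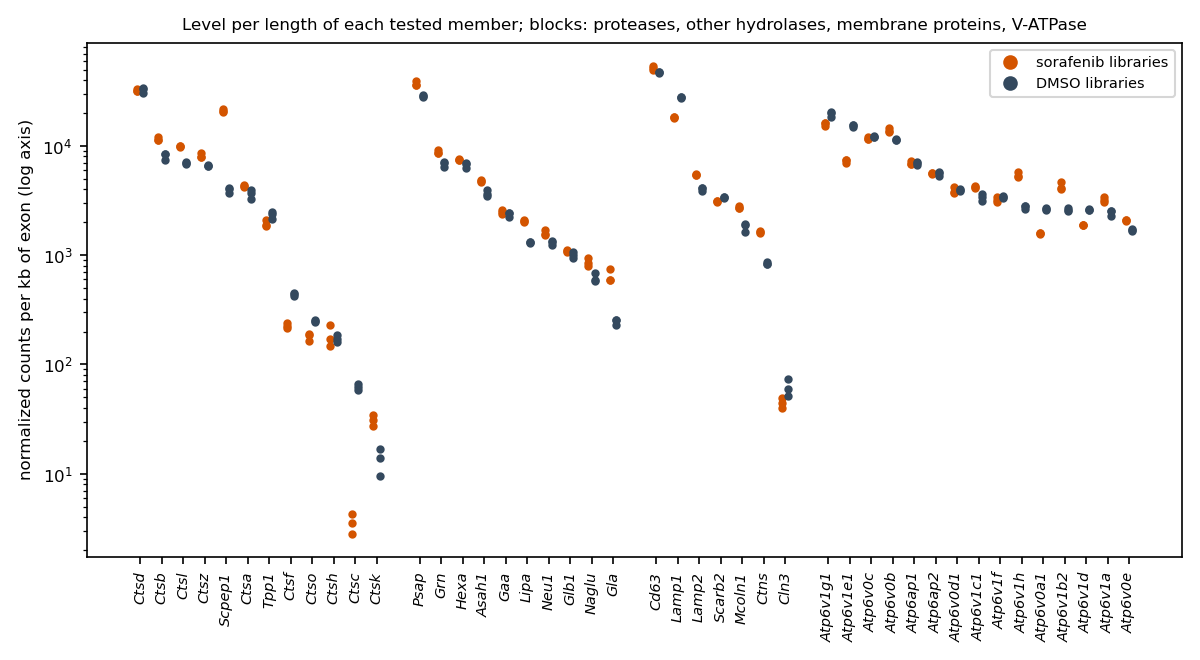
Normalized counts per kb of merged exon for the 44 tested members in each of the 6 libraries, on a log axis, with sorafenib libraries in orange left of DMSO libraries in blue. Members are ordered within each role by their DMSO level; Scpep1 and Ctsc show the widest gaps between groups, and most other pairs nearly touch.

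The 10 members that are other hydrolases or their cofactors moved one way, unlike a longer list of 33 hydrolases given further below. Of these 10 members 8 rose (80%), 0 fell and 2 did not pass (limma), with a median log2 change of 0.36. Over all genes tested 76.6% were called, 38.8% higher and 37.8% lower, so the share called is close to that of all genes. The 2 members that missed the threshold had intervals reaching zero or just past it, and both passed upward with equal totals. At an unadjusted p under 0.05 there were also 0 lower, since all 10 log2 changes were positive (0.07 to 1.37).

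Alpha-galactosidase A (Gla, ENSMUSG00000031266.8, chromosome X, 134588149 to 134601125), the enzyme of globotriaosylceramide breakdown lost in Fabry disease, had 2346, 1874 and 1868 in sorafenib libraries, against 735.5, 803.7 and 809.3 in DMSO libraries. All sorafenib values were well above all DMSO values. The rise was 2.59-fold, a log2 change of 1.37 ± 0.09 (limma adjusted p = 1.29e-06). Its promoter, shown above, carries the core element in 2 places.

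Lysosomal acid lipase (Lipa), which frees cholesterol and fatty acids from lipoprotein esters, had 5953, 6197 and 6129.7 in sorafenib libraries, against 3796, 3886 and 3923 in DMSO libraries. Naglu, which removes N-acetylglucosamine from heparan sulfate, had 2413, 2173 and 2017 in sorafenib libraries, against 1490.3, 1758 and 1532 in DMSO libraries. Both sets were apart, with log2 changes of 0.66 ± 0.04 and 0.47 ± 0.08 (limma adjusted p = 2.33e-07 and 0.000746).

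The rest rose less. Acid ceramidase (Asah1) changed by 0.38, prosaposin (Psap), the precursor of the saposins that present lipids to hydrolases, by 0.36, and progranulin (Grn), a cofactor cleaved in lysosomes, by 0.36. The sialidase Neu1 changed by 0.29 and Hexa, a subunit of beta-hexosaminidase, by 0.15. In each of these the sorafenib libraries were all above the DMSO libraries.

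Acid alpha-glucosidase (Gaa), which degrades glycogen, had 10603, 10064 and 9665 in sorafenib libraries, against 9159, 9831 and 9906 in DMSO libraries. The ranges overlapped and the 95% interval of its log2 change was −0.04 to 0.17. Beta-galactosidase (Glb1) had 2549, 2662 and 2603 in sorafenib libraries, against 2249, 2546 and 2402 in DMSO libraries, higher in each but only just (limma adjusted p = 0.0649). It passed with equal totals (0.28), with the replicate number as a block (0.12) and without DMSO replicate 2 (0.16).

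As a sum, the 10 hydrolases and cofactors reached 177829 ± 5305 normalized counts in sorafenib libraries and 140358 ± 4692 in DMSO libraries, 1.27-fold higher. Psap alone, at 102072 ± 4015 in sorafenib libraries and 79230.2 ± 1856 in DMSO libraries, was the most abundant of them by raw level and per length. This cofactor precursor rose 1.29-fold. Per kb of exon it made up 55.5% of the summed level of the 10 in sorafenib libraries and 54.5% in DMSO libraries.

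Membrane proteins were split between rises and falls, with 4 of 7 higher (57.1%) and 3 lower (42.9%), against 38.8% and 37.8% of all genes. Under quantile normalization 4 were higher but 1 lower, against 40.5% and 36.3% of all genes. Equal totals gave the same counts, against 46.6% and 31.7%. Cystinosin (Ctns, ENSMUSG00000005949.10, chromosome 11, 73183596 to 73199042), the cystine exporter lost in cystinosis, had 4532, 4448 and 4360.2 in sorafenib libraries, against 2242, 2369.7 and 2244 in DMSO libraries. It nearly doubled, by 1.95-fold, a log2 change of 0.96 ± 0.04 (limma adjusted p = 5.66e-08). Mucolipin 1 (Mcoln1), a calcium-permeable channel, had 5803, 5566 and 5604 in sorafenib libraries, against 3331, 3995 and 3888 in DMSO libraries. These groups were also apart, with a change of 0.60 ± 0.07 (limma adjusted p = 3.05e-05).

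The 2 major membrane glycoproteins went opposite ways. Lamp2 had 27304, 27585 and 27525 in sorafenib libraries, against 19593, 20916 and 20710.0 in DMSO libraries, a rise of 1.35-fold. Lamp1 (ENSMUSG00000031447.8, chromosome 8, 13159161 to 13175338) had 40259, 40667 and 40999.8 in sorafenib libraries, against 61816, 62758 and 61483 in DMSO libraries, 1.53-fold lower in sorafenib. Neither pair of groups overlapped, and the log2 changes were 0.43 ± 0.03 and −0.61 ± 0.03 (limma adjusted p = 3.28e-06 and 1.06e-07). Per kb of exon, Lamp1 stood at 18233 and Lamp2 at 5452 in sorafenib libraries, and at 27824 and 4049.7 in DMSO libraries. Lamp1 thus had the higher level per length of the pair in both groups.

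Smaller or less certain changes made up the rest. Scarb2, the receptor that carries glucocerebrosidase to lysosomes, had 14321, 14675 and 14602 in sorafenib libraries, against 15943, 15806 and 15928 in DMSO libraries. These tight groups were apart at a log2 change of −0.13 ± 0.03, but the call ended with quantile normalization (−0.00) and the sign turned with equal totals (0.03). Cln3, a membrane protein lost in juvenile Batten disease, had 148.5, 164.3 and 132.6 in sorafenib libraries, against 172.1, 245.9 and 198.4 in DMSO libraries. Its groups were close, and its change of −0.46 ± 0.15 (limma adjusted p = 0.0239) did not pass with either other scaling, without sorafenib replicate 3 (−0.38) or without DMSO replicate 2 (−0.32). The tetraspanin Cd63, the member with the highest level per length of all 45, changed by 0.13; its pseudogene Cd63-ps held 631.4 normalized counts in sorafenib and 542.1 in DMSO.

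V-ATPase genes moved in both directions, as genes did in general. Of 15 members 6 rose (40%), 4 fell (26.7%) and 5 did not pass, against 38.8% higher and 37.8% lower over all genes tested. The median log2 change of the 15 was 0.01. With equal totals 10 rose and 4 fell, against 46.6% and 31.7% of all genes. Directions differed within each sector. In the V1 sector 4 of 8 subunits rose and 3 fell, and in the V0 sector 2 of 5 rose and 1 fell.

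Rises in V1 were of the ATP-hydrolysing head and of subunits C and H. Subunit H (Atp6v1h, ENSMUSG00000033793.13, chromosome 1, 5070018 to 5162529), which couples V1 to V0 and regulates its activity, had 12469, 11319 and 11581 in sorafenib libraries, against 6081, 5759.9 and 6092 in DMSO libraries. The values did not overlap, and the rise was 1.97-fold, a log2 change of 0.98 ± 0.04 (limma adjusted p = 9e-08). Atp6v1b2, a subunit of the head beside the catalytic one, had 13211, 11603 and 11451 in sorafenib libraries, against 7106, 7660.2 and 7376 in DMSO libraries. Atp6v1a, the catalytic subunit, had 14499, 13042 and 13698 in sorafenib libraries, against 9649, 10777 and 10665 in DMSO libraries. Both pairs of groups were apart, with log2 changes of 0.71 ± 0.06 and 0.41 ± 0.05, and Atp6v1c1, of the collar that joins the sectors, changed by 0.31.

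Falls in V1 were of stalk and rotor subunits. Atp6v1e1 (ENSMUSG00000019210.11, chromosome 6, 120794305 to 120822793), of the peripheral stalks, had 9136, 9713 and 9844 in sorafenib libraries, against 20311, 19459.6 and 20447 in DMSO libraries. No other V-ATPase member among the 15 had a larger change: it was 2.1-fold lower in sorafenib, a log2 change of −1.07 ± 0.04 (limma adjusted p = 2.43e-08). Its stalk partner Atp6v1g1 changed by −0.31, in the same direction; Gm13453, a near copy of it, held 175.1 normalized counts in sorafenib and 267.4 in DMSO. Atp6v1d, of the rotor axle, had 6870.3, 6978 and 6872 in sorafenib libraries, against 9734, 9410.2 and 9592 in DMSO libraries, a change of −0.47 ± 0.03. Atp6v1f, its axle partner, overlapped between groups at 3651, 3271 and 3379 in sorafenib libraries and 3573, 3584 and 3683 in DMSO libraries. The interval of its change was −0.18 to 0.03, and it passed downward without sorafenib replicate 1 (−0.12) and with quantile normalization (−0.14, −0.135 before rounding).

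In V0, Atp6v0a1, an isoform of the subunit whose membrane domain forms the proton path, had 6513, 6522 and 6379 in sorafenib libraries, against 10436, 10867 and 10667 in DMSO libraries. It was 1.65-fold lower, with groups apart (log2 change −0.72 ± 0.03, limma adjusted p = 7.93e-08). Atp6v0b, of the proton-carrying ring, and Atp6v0e, a small membrane subunit, rose by 0.29 and 0.30 on the log2 scale.

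The proteolipid Atp6v0c, which makes up most of that ring, had 15055, 14603 and 14695 in sorafenib libraries, against 15080.0, 15079 and 15469.6 in DMSO libraries. All sorafenib values were below all DMSO values, yet the difference was so small that it did not pass, with an interval of −0.11 to 0.03. Its pseudogene Atp6v0c-ps2 is 99.7% identical over 387 bases and held 2026 normalized counts in sorafenib and 2154 in DMSO, which leaves the division of reads between gene and copy uncertain. Summed with that copy the log2 change was −0.05.

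The 3 remaining proteins had overlapping groups. Atp6v0d1, which links ring and axle, had 6795, 6062 and 6188 in sorafenib libraries, against 6261, 6552 and 6463 in DMSO libraries. The accessory protein Atp6ap1 had 16266, 15442 and 15368 in sorafenib libraries, against 15153, 15982 and 15629 in DMSO libraries, and Atp6ap2 had 12834, 13131 and 13113, against 12231, 13453 and 13035. Their 95% intervals were −0.13 to 0.09, −0.07 to 0.09 and −0.08 to 0.11 on the log2 scale. With equal totals Atp6v0d1, Atp6ap1, Atp6ap2 and Atp6v0c all passed upward.

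**Figure D3:**
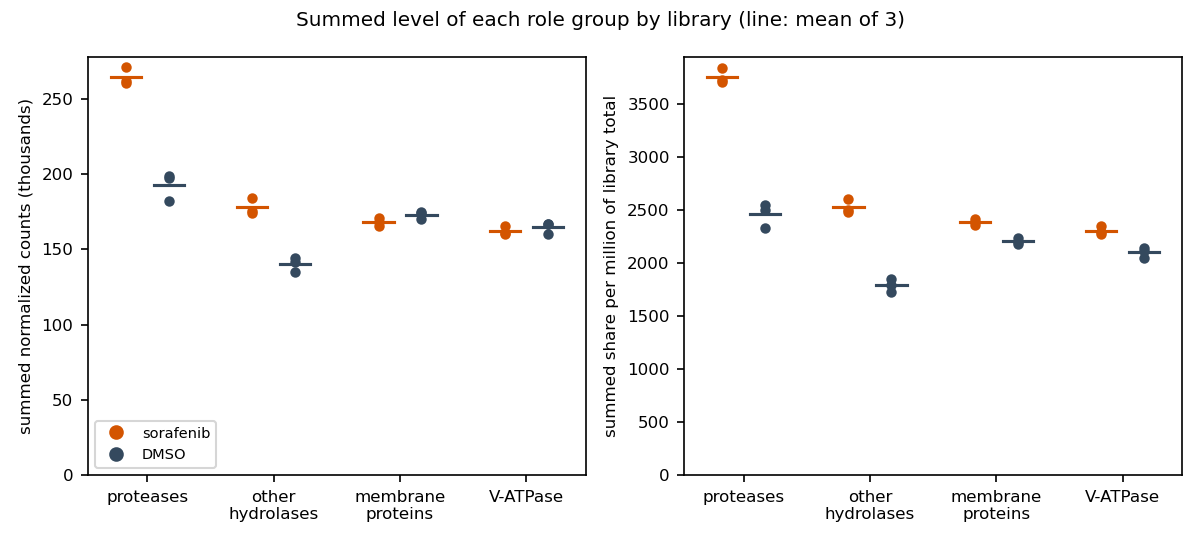
Summed normalized counts of the members of each role group (left) and their level relative to the library total (right), with 1 point per library, sorafenib in orange left of DMSO in blue, and the mean as a line. Proteases and other hydrolases lie apart in both panels; V-ATPase sums overlap in the left panel at 159992 to 165812 in sorafenib and 160409 to 167142 in DMSO.

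Summed over its 15 members, V-ATPase RNA was 162304 ± 3089 normalized counts in sorafenib libraries and 164823 ± 3825 in DMSO libraries (SD, n = 3 each), and the groups overlapped. Membrane proteins summed to 167991 ± 2604 in sorafenib libraries and 172954 ± 2221 in DMSO libraries, and these groups overlapped too. All 45 members summed to 772567 ± 16423 in sorafenib libraries and 671152 ± 19817 in DMSO libraries, 1.15-fold higher. The library totals are lower in sorafenib, so the same sums per 1e+06 normalized counts of the total give another picture. On that scale the V-ATPase held 2306 ± 37.4 in sorafenib libraries and 2103 ± 48.0 in DMSO libraries, 1.1-fold higher (1.097 before rounding). Membrane proteins held 2387 ± 30.4 in sorafenib libraries and 2206 ± 31.5 in DMSO libraries, 1.08-fold higher. In both, every sorafenib library was then above every DMSO library, so the direction of these sums rests on the scaling. The 45 members together held 10977 ± 202.4 in sorafenib libraries and 8562 ± 255.5 in DMSO libraries, 1.28-fold higher.

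Several V-ATPase subunits are made from alternative genes, and their mixture was not the same in the groups. These genes were on a list of other isoforms, but the shares by subunit were computed after their values were seen, and they have no test. Per kb of exon, Atp6v0a1 held 25.1% ± 1.13 of subunit a in sorafenib libraries and 39.5% ± 1.64 in DMSO libraries (SD, n = 3 each). Tcirg1, the a3 isoform prominent in osteoclasts, held 44.2% ± 0.21 in sorafenib libraries and 32.1% ± 0.53 in DMSO libraries. Its log2 change was 0.40 ± 0.06, while that of Atp6v0a2, the other isoform with a sizeable share, was 0.05 ± 0.08 and did not pass.

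In 3 other subunits a less abundant isoform fell. Atp6v1c2 had 177.6, 319.2 and 323.8 in sorafenib libraries, against 1369, 1174 and 1391 in DMSO libraries, 4.79-fold lower in sorafenib (limma adjusted p = 4.8e-05). Its share of subunit C was 3.78% ± 1.16 in sorafenib libraries and 18.9% ± 2.30 in DMSO libraries. Atp6v0e2, named after its values were seen, had 566.0, 751.1 and 706.7 in sorafenib libraries, against 2105, 2026 and 2153 in DMSO libraries. Its share of subunit e was 15.2% ± 1.74 in sorafenib libraries and 40.8% ± 1.35 in DMSO libraries. The size of that share rests on merged exon lengths of 3.71 kb for Atp6v0e and 1.79 kb for Atp6v0e2. Atp6v1g2 had 84.4, 100.4 and 101.6 in sorafenib libraries, against 378.2, 283.7 and 375.9 in DMSO libraries, but made up under 1.1% of subunit G in each (1.095% at most). The groups of each of these 3 genes were far apart.

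**Figure D4:**
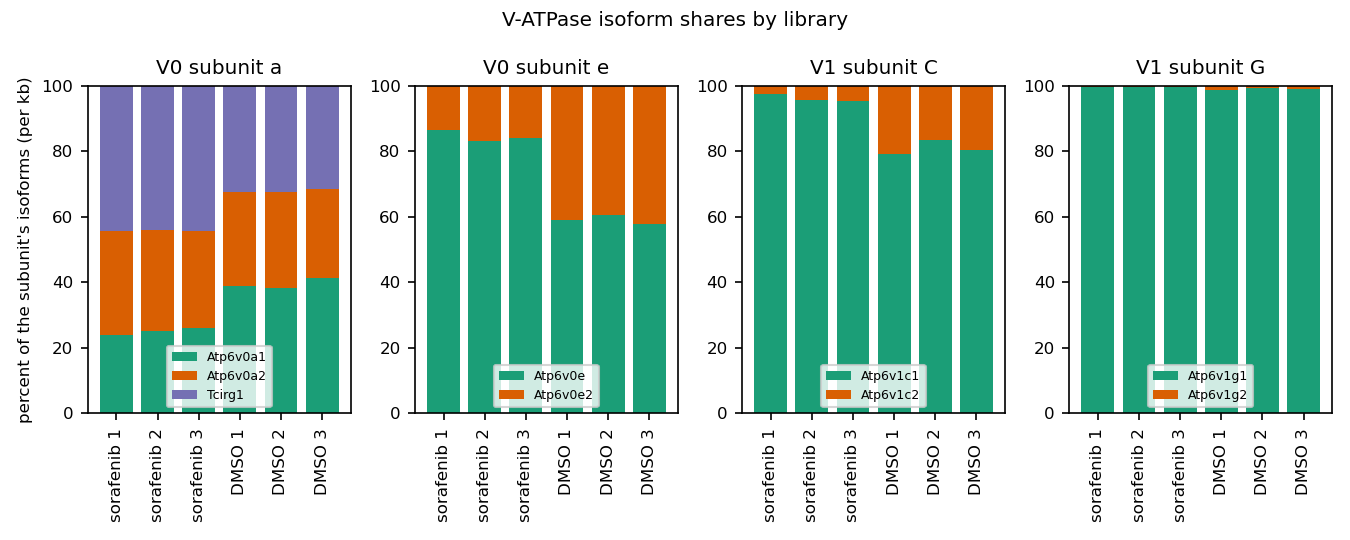
Share of each isoform in the summed level per kb of its V-ATPase subunit, by library, with the 3 sorafenib libraries left of the 3 DMSO libraries. Atp6v0e2 falls to 13.3% to 16.7% of subunit e in sorafenib, against 39.4% to 42.1% in DMSO, and Atp6v1c2 to 2.44% to 4.52% of subunit C, against 16.4% to 20.8%.

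Of the whole list of other V-ATPase isoforms and assembly factors, 16 of 20 reached the minimum. Of these, 6 rose (37.5%) and 7 fell (43.8%), against 38.8% and 37.8% of all genes tested. Wdr7, a partner of the rabconnectins that promote assembly, had the largest rise at 0.67 ± 0.06.

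Transcription factors of the MiT/TFE family, which drive lysosomal genes when released from mTORC1 control, and their regulators were mostly higher. Of 10 tested, 9 rose (90%) and 1 fell (10%), against 38.8% higher and 37.8% lower over all genes tested. Among the factors themselves only Tfe3 and Mitf rose, and the other genes that rose were regulators. The list was not divided by whether a regulator promotes or restrains the factors, so this share gives no direction of their control. Tfeb itself was the exception, with 730.3, 768.6 and 811.4 in sorafenib libraries, against 1808, 1788 and 1838 in DMSO libraries, 2.35-fold lower in sorafenib. Tfe3 had 6194, 6144 and 5944 in sorafenib libraries, against 2984, 3234 and 2851 in DMSO libraries, and Mitf had 1411, 1435 and 1315, against 699.4, 817.6 and 800.2. The relatives thus went opposite ways with no overlap, at log2 changes of −1.23 ± 0.06, 1.01 ± 0.05 and 0.85 ± 0.07 (limma adjusted p = 9.59e-08, 1.43e-07 and 6.36e-06). Fnip2, a folliculin partner that acts on the Rag GTPases, rose 3.47-fold, and Tfec was listed at 0 in all 6 libraries. Folliculin itself (Flcn) had the smallest rise, 0.11 on the log2 scale (limma adjusted p = 0.0429). It did not pass by the authors' DESeq2 (adjusted p = 0.0867). Since TFEB and its relatives are controlled largely by phosphorylation and location, RNA levels do not show their activity.

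Enzymes that mark hydrolases for lysosomes with mannose 6-phosphate rose. The marking enzyme Gnptab changed by 1.16 ± 0.06, its partner subunit Gnptg by 0.48 and the uncovering enzyme Nagpa by 0.57. Of the receptors, M6pr changed by 0.56 and Igf2r by −0.54, while Sort1 (sortilin), which sorts prosaposin and other cargo, had 999.8, 988.2 and 966.1 in sorafenib libraries, against 3833, 3622 and 3717 in DMSO libraries. Over this list of 20, 8 rose (40%) and 9 fell (45%), against 38.8% and 37.8% of all genes tested. With equal totals 10 rose and 6 fell, against 46.6% and 31.7% of all genes. Gnptg and M6pr were named after their values were seen.

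Of 33 hydrolases outside the 45, 12 rose (36.4%) and 13 fell (39.4%), near the 38.8% and 37.8% of all genes tested, or 18 and 9 with equal totals. Naaa, an amidase of lipid amides, rose 2.74-fold, whereas Dnase2a, the lysosomal DNase, was 3.98-fold lower and Galns, a keratan sulfate sulfatase, 2.01-fold lower. The one-way rise of the 10 hydrolases and cofactors above was therefore not seen across this longer list. Of 24 other membrane proteins 12 rose (50%) and 9 fell (37.5%), against 38.8% and 37.8% of all genes tested. With equal totals 14 rose and 6 fell, against 46.6% and 31.7% of all genes. The nucleoside transporter Slc29a3 rose 4.16-fold and the cholesterol transporter Npc1 2.94-fold, while the cation channel Tpcn1 was 1.94-fold lower and Tmem9 1.7-fold lower.

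Of 21 genes of late endosome and lysosome fusion and movement, 8 rose (38.1%) and 10 fell (47.6%), against 38.8% and 37.8% of all genes. With equal totals 10 rose and 4 fell, against 46.6% and 31.7% of all genes. Arl8a, a GTPase of lysosome transport, rose 1.43-fold and the tethering subunit Vps11 1.42-fold. Bloc1s1, a subunit of BORC and BLOC-1, was 4.74-fold lower and Rilp, a Rab7 effector, 2.6-fold lower. Of 6 tested inhibitors of lysosomal and related proteases, 2 rose (33.3%) and 4 fell (66.7%), against 38.8% and 37.8% of all genes. Cstb, an intracellular cystatin, had 8566, 7599.7 and 7673 in sorafenib libraries, against 3375, 3679 and 3670.2 in DMSO libraries, while the secreted cystatin Cst3 had 7796, 7702 and 7744, against 12591, 13216 and 13374. Serpinb9 changed by 0.49 and the complement inhibitor Serping1 by −2.19.

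Genes of the response to lysosome damage numbered 15, of which 6 rose (40%) and 7 fell (46.7%), against 38.8% and 37.8% of all genes. With quantile normalization 8 rose and 4 fell, against 40.5% and 36.3% of all genes. Equal totals gave 7 and 5, against 46.6% and 31.7%. Galectin 3 (Lgals3), which binds glycans exposed on ruptured lysosomes, had 65014, 57416 and 57029 in sorafenib libraries, against 26778, 26612 and 28066 in DMSO libraries, 2.2-fold higher. Trim16, a TRIM protein that acts with galectin 3, changed by 0.79. Lgals9 changed by −0.70 and the segregase Vcp by −0.42.

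**Figure D5:**
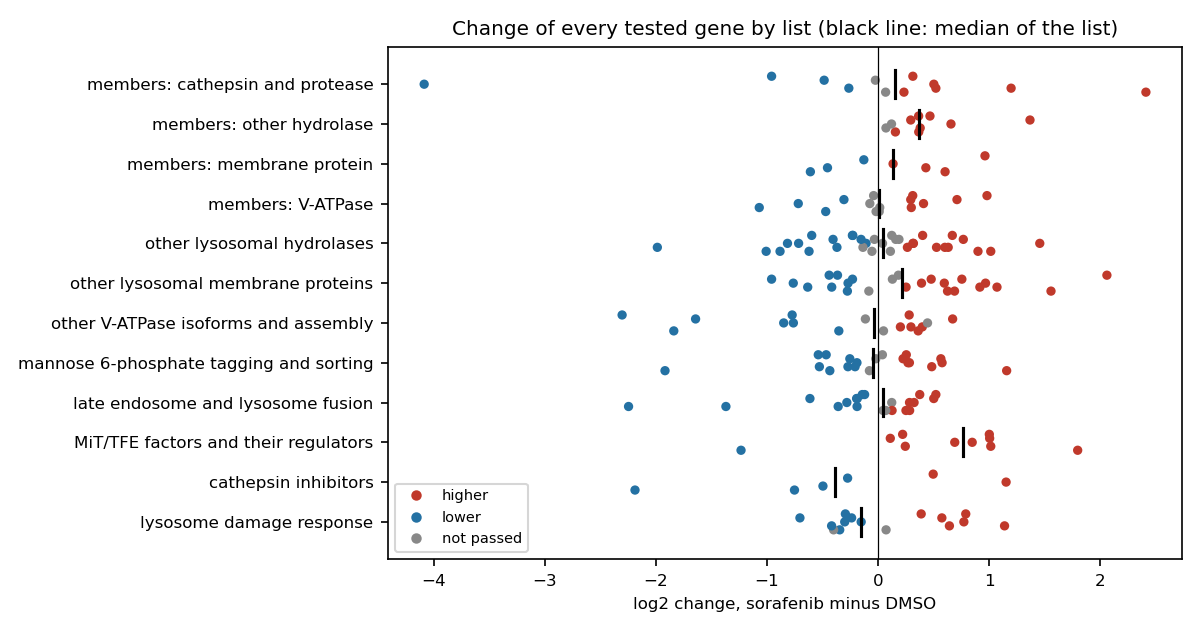
Log2 change, sorafenib minus DMSO, of every tested gene of the 4 role groups and of 8 further lists, with 1 point per gene, coloured by call, and the median of each list as a black line. The median is 0.36 for the other hydrolases among the members and 0.77 for the MiT/TFE list, against 0.04 for the longer list of hydrolases.

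Markers of cells rich in lysosomes were low. Of 14 macrophage and leukocyte markers 5 reached the minimum, 3 higher (60%) and 2 lower (40%), against 38.8% and 37.8% of all genes tested. Adgre1, C1qa and C1qb were listed at 0 in all 6 libraries. The summed level of the 14 markers was 1022 to 1172 normalized counts in sorafenib libraries and 434.2 to 474.5 in DMSO libraries. Cd14, the most abundant, had 684.5, 640.4 and 604.0 in sorafenib libraries, against 276.4, 263.4 and 294.0 in DMSO libraries. Cd68, itself a lysosomal glycoprotein, had 435.7, 365.7 and 357.8, against 47.6, 50.9 and 38.1, and most of the sum lay in these 2 genes. Itgam had 16.4, 15.6 and 19.2 in sorafenib libraries, against 65.1, 51 and 66.8 in DMSO libraries, and Mrc1 had 0.913, 1.84 and 8.24, against 38.1, 44 and 52.6; both fell. Cd68, Itgam and Mrc1 were named after their values were seen. Of 8 osteoclast markers 2 were tested, 1 higher and 0 lower, with Calcr and Dcstamp at 0 throughout, Atp6v0d2 also on the V-ATPase list, and Nfatc1 the most abundant, with a log2 change of 0.27. At an unadjusted p under 0.05 there were also 0 lower, since the 2 tested genes both had positive changes. The summed level of the 8 osteoclast markers was 2053 to 2093 in sorafenib libraries and 1520 to 1874 in DMSO libraries. The part of these markers, and of the lower myotube markers, in the changes of the members was not tested.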

How the data were processed

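Poly(A)-selected, stranded RNA libraries were made, per the labels' protocols. The signal values are counts that the authors normalized. DESeq2, bcl2fastq and GRCm38.p6 are named in the submitters' processing notes. Averaging the 6 library columns gave back the deposited base mean, to a relative 1e-06, in all 55356 rows. The authors' deposited log2 fold changes and p-values are quoted as theirs, and their deposited standard errors (other values) and Wald scores were not used. For the counting tool, the sources used here give no name. Low values were whole multiples of a single read's value, within 0.02, in 64.6% to 70.5% of cases, so no count model was fitted.

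The 16645 genes that reached 10 normalized counts in 3 or more libraries entered limma 3.58.1 in R 4.3.3 (trend and robust empirical Bayes) on log2(value + 1), which understates changes of low genes. Group was the only term. Benjamini-Hochberg adjustment covered all of these genes, with 0.05 as threshold. The design text describes the replicates as independent experiments. Levels per kb used merged exons of the GENCODE M21 basic set, which also gave positions, because the table's own start and end lay within 1 base of GRCm38 for 1 of the 45 members. Near-identical copies were sought with blastn at 95% identity over 150 bases. Values of every library are given for the 3 largest rises and falls called in each role group and for members not called. From each other list the 2 largest in each direction are named, and Tfeb, Tfe3 and Mitf always. Of the genes so chosen, 1 is not reported here. The most abundant member is named from each marker list. The members, lists and tests were chosen with earlier results of these data known. A planned comparison of protein sequences was not made. Tables and plots were made in Python 3.11.15 (pandas 2.3.3, matplotlib 3.10.9). The limma step was tested on simulated data. Alternatives were quantile normalization, equal totals, testing with no filter, raising the minimum to 50, a pseudocount of 0.1 or 10, a block by replicate number, and dropping each library in turn, plus the summed Atp6v0c copy, added after seeing the data.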

Additional observations from a re-analysis of the deposited data

How the results depend on the processing

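Alternatives gave 572 values for the 44 tested members, of which 542 kept their direction and their side of the threshold, 6 lost the threshold, 11 gained it and 13 turned sign. Ctsk had no value with a minimum of 50, where members called higher numbered 23. Of the sign changes 5 passed the threshold. With quantile normalization Ctsd turned to 0.33 and Atp6v0c to 0.088. With equal totals Ctsd turned to 0.13, Scarb2 to 0.026, Atp6v0c to 0.115, Atp6v0d1 to 0.14 and Atp6v1f to 0.08. Leaving out 1 library turned the sign of 5 members that had not passed and did not pass then. Their changes ran over −0.068 to 0.003 for Ctsd, −0.11 to 0.211 for Ctsh, −0.017 to 0.028 for Atp6ap1, −0.024 to 0.045 for Atp6ap2 and −0.069 to 0.014 for Atp6v0d1. Members called lower among membrane proteins numbered 1 under each of the other scalings, and V-ATPase members called higher numbered 10 with equal totals. The equal-totals rise of small values follows from its construction, since sorafenib totals are lower. Leaving out 1 library gave 24 to 25 members higher and 10 to 12 lower. With the replicate block 25 members were higher and 11 lower, Glb1 being the gain at 0.12, and it changed no other call of a member. Same-numbered libraries deviated together only weakly across genes (correlations 0.077, 0.045 and 0.022), and DMSO replicate 3 correlated best with sorafenib replicate 2 at 0.025, so the numbers were not taken as pairs. Members under 1000 normalized counts in either group numbered 8, and the 4 widest intervals, of Ctsk, Ctsc, Ctsh and Cln3, were among them.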
